A study of Mus musculus with 6 samples.

Results

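The colony-stimulating factor axis is taken here as the 6 genes whose symbols are Csf1r, Csf1, Csf2ra, Csf2rb, Csf2rb2 and Csf3r, and all 6 of them were found among the 32285 genes of the 4 single-cell RNA libraries. Csf1r encodes the receptor for the growth factors made from Csf1 and Il34, a tyrosine kinase on which microglia (MG) and most tissue macrophages depend for survival. Csf1 encodes macrophage colony-stimulating factor, a ligand of that receptor. Csf2ra encodes the ligand-binding α chain of the receptor for granulocyte-macrophage colony-stimulating factor (the product of Csf2), and Csf2rb encodes the β chain that signals for it and for the receptors of interleukin 3 and interleukin 5. Mice carry a further β chain gene, Csf2rb2, which serves interleukin 3. Csf3r encodes the receptor for granulocyte colony-stimulating factor (the product of Csf3), best known from neutrophils. The β chain and Csf3r signal through JAK kinases, whereas the product of Csf1r is itself a kinase.

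CD45+ cells were sorted from the ventral midbrain of male Line 61 mice, which express human α-synuclein from the Thy1 promoter with the transgene on the X chromosome; all groups carry it. The mice received PBS, monomeric α-synuclein or preformed fibrils (PFF) in both striata at 12 to 15 weeks of age and were sampled 6 weeks later. From week 2 the PFF mice were given either vehicle (VH, DMSO) or AZD1480, an inhibitor of JAK1 and JAK2, at 25 mg/kg each day by gavage, and 3 to 5 midbrains were pooled per sample. There is 1 mRNA library per condition. Hashtags, antibody-linked tags, number 4 in PFF + VH and 5 in PFF + AZD1480 and were taken here as replicate samples, an equation that the sources do not spell out.

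The libraries hold 77105 cells after filtering, 13021 to 34436 each. Median depth was 7028 UMIs (unique molecules) in PBS, 6688 in monomer and 6616 in PFF + AZD1480, but 2306 in PFF + VH, which also had the most cells, so that shares of cells with a UMI are given after random thinning of each cell to 1000 UMIs. Between 51 and 163 barcodes were shared by a pair of libraries. A hashtag could be given to 52.0% of the PFF + VH cells and to 81.0% of the PFF + AZD1480 cells. Cell classes were set by UMIs of marker genes and stand for MG-like, border macrophage-like, T-like cells and so on, written below without the suffix. They held 69130 MG, 659 border macrophages, 112 monocytes, 32 dendritic cells, 128 neutrophils, 17 mast cells, 356 T cells, 221 NK cells and 134 B cells, with 1413 cells of mixed markers and 4852 unassigned. A further 9 to 17 cells per library had markers of cells that are not immune and were left out. Levels are given as CPM, the UMIs of a gene summed over all cells of a class in a library or hashtag and scaled to the same total.

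Csf2rb and Csf2rb2 lie side by side on chromosome 15 of mm10, at 78325752 to 78353847 on the plus strand and at 78282507 to 78305721 on the minus strand. Their coding sequences, of 2691 and 2637 bases in the GENCODE transcripts, are 95.2% identical over the aligned bases, and the longest run without a difference is 242 bases. Because the counts come from the 3′ end of transcripts, the end matters most for telling the copies apart: of the windows of 90 bases, 8.43% of those in the Csf2rb transcript also occur in Csf2rb2, but none of those in the last 500 bases do. Reads from the shared stretches could still be lost or divided, so the levels of both copies are uncertain to that extent. The coding stretch of 60 bases with the most differences, 13, shows how alike the copies are even there, with the differing bases in capitals, at coding bases 304 to 363 of Csf2rb and 307 to 366 of Csf2rb2.
Csf2rb: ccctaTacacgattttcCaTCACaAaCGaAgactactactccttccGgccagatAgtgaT
Csf2rb2: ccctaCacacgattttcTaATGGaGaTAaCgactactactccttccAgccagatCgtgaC

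Csf1 lies on chromosome 3 at 107741048 to 107760469 on the minus strand, Csf3r on chromosome 4 at 126024550 to 126044440 on the plus strand and Csf2ra on chromosome 19 at 61223957 to 61228429 on the minus strand, and no other annotated gene overlaps these 3. Csf1r overlaps Hmgxb3 on the opposite strand and a miRNA gene on its own, and Csf2rb and Csf2rb2 each overlap a miRNA gene. Csf1 is the member that moved most with the cytokine signature of MG described below, so the κB consensus, the binding motif of NF-κB factors, was searched on both strands of the 250 bases before each start in the RefSeq promoter table. The stretch chr3:107760589-107760648 (GRCm38, minus strand) holds the match of Csf1, in capitals, which begins 154 bases before the start.
Csf1: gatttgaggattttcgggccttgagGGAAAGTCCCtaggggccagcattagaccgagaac
Of 32851 promoters in the table, 7.25% hold such a match. In the first promoter listed for a gene, 2 of the 4 members found there (Csf1 and Csf3r) hold one. Of 7 genes of the cytokine signature listed there, 2 hold one in any of their promoters. The counts thus differ in kind and are not compared. The match is a description of letters and not of a bound site.

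Csf1r was the member found in nearly every MG. A UMI of it was present in 98.0% of MG in PBS, 97.3% with monomer, 92.7% with PFF + VH and 98.3% with PFF + AZD1480, and after thinning in 87.8%, 88.7%, 82.3% and 85.5%. Its level in MG was 2301 CPM in PBS, 2399 CPM with monomer, 1897 CPM with PFF + VH and 2133 CPM with PFF + AZD1480. Border macrophages came next among the named classes, with 1280 to 1392 CPM over the 4 libraries, followed by monocytes with 441 to 726 CPM. In the 8 hashtags with at least 10 border macrophages, MG were higher in 8 of 8, by 0.63 ± 0.20 on the scale log2(CPM + 10) (mean ± SD; exact two-sided sign-flip test, adjusted p = 0.035 over the 18 tests of neighbouring and outer classes). Border macrophages were in turn higher than T cells in 6 of 6 hashtags by 2.64 ± 0.88 (exact test, adjusted p = 0.038).

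T, NK and B cells, which should lack Csf1r, still showed a UMI of it in 42.4%, 39.8% and 41.0% of cells without thinning, and in 17.3%, 11.6% and 17.2% after it, against 85.3% of MG. If MG transcripts reach other cells as free RNA, they should carry Csf1r and MG markers in the ratio found in MG, and at that ratio the MG marker UMIs of the T cells correspond to 265 Csf1r UMIs, against 342 counted (1.29 times). For NK cells the quotient was 1.10, for B cells 1.62, for neutrophils 1.70, for dendritic cells 1.97, for border macrophages 3.55 and for monocytes 5.40. Levels in T, NK and B cells are not read as expression here, and the source of the UMIs above the ratio was not tested. Cells entered these classes only with MG markers below a set limit, so the same UMIs sorted the cells and gave the expected count. This can raise the quotients, here and below, so they are no test of whether free RNA accounts for the UMIs. For border macrophages the quotient is a guide at most, since their level of MG markers, 1745 to 1889 CPM, can include their own transcripts.

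**Figure D1:**
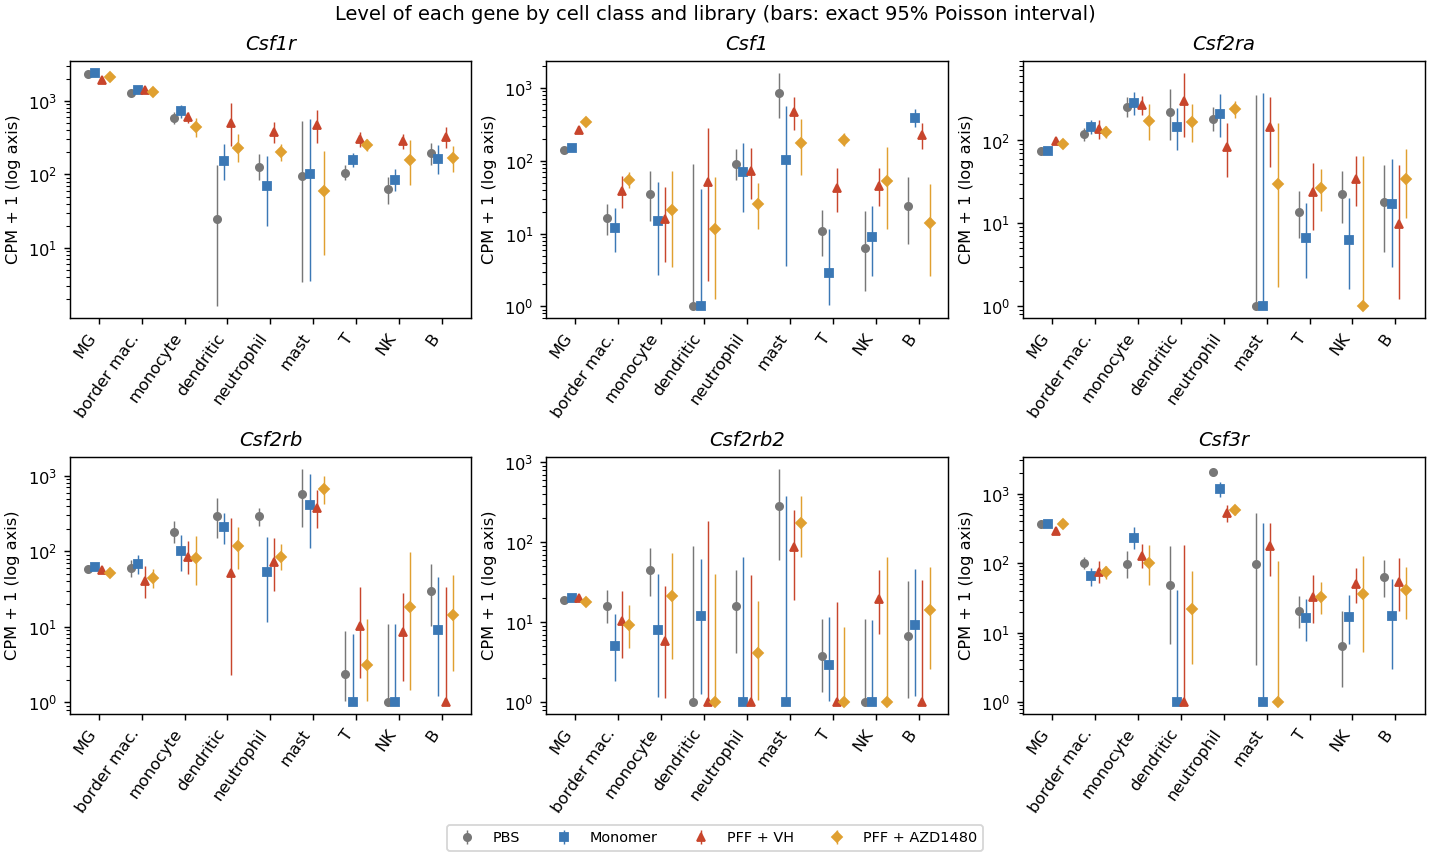
Level of each of the 6 genes by cell class and library, as CPM + 1 on a log axis, with exact 95% Poisson intervals. Csf1r was highest in MG (1897 to 2399 CPM), Csf3r in neutrophils (530 to 2078 CPM), and Csf2ra in the 4 libraries lay between 170.5 and 281.8 CPM in monocytes against 73.7 to 96.9 CPM in MG, while mast, dendritic and NK cells rest on few UMIs.

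Csf1 came from MG far more than from border macrophages. Its level in MG was 140.2 CPM in PBS, 149.6 CPM with monomer, 262.4 CPM with PFF + VH and 345.2 CPM with PFF + AZD1480, against 10.8 to 53.6 CPM in border macrophages. The border macrophage UMIs, 99 in all, were 0.745 of those that the MG marker ratio gives, so the sum over this class was not above that level. They lay in 58 of 659 cells, with 27 of them in 3 cells and 13 in 1 cell. Whether single border macrophages exceed the ratio was not tested. Mast cells had 32 UMIs in 10 of 17 cells, or 357.6 CPM (exact 95% Poisson interval 244.6 to 504.8), and 19 of these UMIs were in 3 cells. Single cells set the values of lymphocytes: 85 of 109 UMIs in T cells and 74 of 79 in B cells came from 3 cells each. Of the T cell UMIs, 92 were in the PFF + AZD1480 library, where the 44 T cells with a single hashtag held only 4 of them and the other 42.9%, called with more than 1 hashtag, a call that doublets also give, held the rest. The comparison of T cells with border macrophages therefore left the leading cells out and rested on 84 T cells with 7 UMIs (higher in border macrophages in 3 of 6 hashtags, exact test, adjusted p = 0.63).

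The α chain was distributed the other way. Csf2ra lay at 170.5 to 281.8 CPM in monocytes of the 4 libraries, at 81.6 to 236.6 CPM in neutrophils, at 142.6 to 300.3 CPM in dendritic cells and at 118.7 to 143.4 CPM in border macrophages. MG held 73.7 CPM in PBS and with monomer, 96.9 CPM with PFF + VH and 90.9 CPM with PFF + AZD1480. In the 8 hashtags, border macrophages were above MG in 8 of 8, by 0.52 ± 0.33 on the log2(CPM + 10) scale (exact test, adjusted p = 0.035). The ranges of monocytes, neutrophils and dendritic cells overlap, and their order is not resolved.

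Csf2rb was found at 56.5 CPM in MG of PBS, 60.4 CPM with monomer, 56.3 CPM with PFF + VH and 49.98 CPM with PFF + AZD1480, levels that border macrophages shared (39.6 to 66.3 CPM, lower than MG in 6 of 8 hashtags, exact test, adjusted p = 0.097). Mast cells were at 375.3 to 666.3 CPM in the 4 libraries, with 46 UMIs in 11 of 17 cells. A single PFF + AZD1480 cell held 21 of these UMIs, and without it the value of that library fell from 666.3 to 86.5 CPM (2 UMIs) and that of all mast cells from 514.0 to 320.1 CPM (exact 95% Poisson interval 207.2 to 472.6). In T and NK cells 4 and 3 UMIs were counted among 356 and 221 cells, no more than the MG marker ratio gives. Csf2rb2 was rarer: 17.04 to 19.3 CPM in MG and 4.06 to 15.2 CPM in border macrophages, where MG were higher in 7 of 8 hashtags by 1.00 ± 0.65 (exact test, adjusted p = 0.038). The border macrophages of a hashtag held at most 3 UMIs of it, and several held none, so this comparison lay near the limit of counting. Of the mast cells 6 of 17 held a Csf2rb2 UMI, 9 of the 12 UMIs in 3 cells. No T cell of the 6 hashtags tested had a UMI (0 of 84 cells), and with a floor of 3 counts over the group, which is 7.99 CPM, Csf2rb2 was at least 2.29-fold lower there than the 18.3 CPM of MG. Over the T cells of all 4 libraries, 3 UMIs were counted in 356 cells.

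Csf3r was highest in neutrophils, the cells it is known for, yet it was also a gene of MG. Neutrophils held 2078 CPM in PBS, 1163 CPM with monomer, 530 CPM with PFF + VH and 579 CPM with PFF + AZD1480, from 42, 9, 32 and 45 cells. The intervals of the PBS and both PFF values do not overlap, but there is 1 library per condition, and no neutrophil test was run since only 1 hashtag of each PFF library reached the minimum of 10 cells, so these values describe the libraries. MG held 368.3 CPM in PBS, 368.1 CPM with monomer, 294.3 CPM with PFF + VH and 360.8 CPM with PFF + AZD1480, and a UMI after thinning was present in 30.3%, 30.3%, 24.3% and 29.0% of MG. Border macrophages, at 63.6 to 100.7 CPM, were lower than MG in 8 of 8 hashtags (2.15 ± 0.80 on the log2(CPM + 10) scale, exact test, adjusted p = 0.035), and their UMIs were 1.32 times those of the MG marker ratio.

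The paired edgeR fit over all genes gave the same ranking for border macrophages against MG, where 25.3% of 12463 genes passed an adjusted p under 0.05. Lower in border macrophages were Csf1 (log2 fold change −2.96 ± 0.22, SE, adjusted p = 2.471e-39), Csf3r (−2.30 ± 0.20, adjusted p = 4.076e-30), Csf1r (−0.77 ± 0.15, adjusted p = 1.378e-06) and Csf2rb2 (−1.67 ± 0.54, adjusted p = 0.011). Csf2ra alone was higher (0.50 ± 0.18, adjusted p = 0.025), and Csf2rb was at −0.32 ± 0.25 (adjusted p = 0.39). DESeq2 did not call Csf2rb2 (adjusted p = 0.071), and without a filter on low counts edgeR did not call Csf2ra (adjusted p = 0.076). In T cells against MG, where 33.3% of 12993 genes passed, all 6 members were lower, Csf1r by −3.69 ± 0.17 and Csf2ra, the smallest difference, by −2.99 ± 0.47.

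Over the 15 sums of a class and a library with at least 50 cells (MG, border macrophages, T cells and NK cells), the genes most like each member were named by Pearson's r of log2(CPM + 10) among 5938 genes. For Csf1r they were Hpgds (r = 0.994), Pld4 (0.994) and Tlr7 (0.993), for Csf3r Lpcat2 (0.988), Ptgs1 (0.987) and Tgfbr1 (0.987), and for Csf2rb Cd33 (0.991), Fcgr1 (0.991) and March1 (0.986). For Csf2ra they were Tpd52 (0.986), Creb5 (0.983) and C3ar1 (0.983). For Csf1 they were Apbb2 (0.973), Fat3 (0.945) and Abhd17c (0.912), and for Csf2rb2, which never reached 50 CPM, Arhgap39, Hltf and Tmed7 at 0.923 to 0.928. The sums share libraries and are few classes, so r mainly records which classes hold a gene.

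The ligands other than Csf1 had few UMIs. Il34 had 54 UMIs in 69130 MG and Csf3 none in any class, which allows at most 3 counts in each. Csf2, the ligand of the receptor made from Csf2ra and Csf2rb, had 79 UMIs in 19 of 356 T cells (40.9 CPM, exact 95% Poisson interval 32.4 to 51.0) and 9 UMIs in 5 of 221 NK cells, against 26 UMIs in 16 of 69130 MG. The cells of mixed markers held more, 148 UMIs in 19 of 1413 cells (18.6 CPM), and the unassigned cells held 28 UMIs in 8 of 4852 cells. The T cells with a Csf2 UMI were 5 of 123 in PBS, 8 of 85 with monomer, 3 of 71 with PFF + VH and 3 of 77 with PFF + AZD1480, and held 56, 13, 7 and 3 UMIs. Without the PBS library the level in T cells was 18.9 CPM, from 23 UMIs. Il5ra, the interleukin 5 receptor α chain, had 84 UMIs in 24 of 134 B cells. Il3ra, the interleukin 3 receptor α chain, was at 14.95 CPM in MG and 29.8 CPM in border macrophages.

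Among MG the largest difference between libraries was in Csf1. Compared with monomer, the level in PFF + VH was 1.75 times as high for Csf1, 1.31 times for Csf2ra, 0.933 times for Csf2rb, 0.979 times for Csf2rb2, 0.799 times for Csf3r and 0.791 times for Csf1r. Monomer and PBS differed by a ratio of 1.00 to 1.07 for the 6 members. PBS and monomer are single libraries without hashtags, so that none of these differences has a replicate check and the condition cannot be told apart from the library. The 4 PFF + VH hashtags, which share 1 library, were all above PBS and monomer in Csf1 (205.1 to 322.7 CPM) and in Csf2ra (92.1 to 103.1 CPM), and below both in Csf1r (1852 to 1958 CPM) and Csf3r (282.8 to 309.9 CPM). The share of all genes placed on 1 side in this way was not counted, so these positions describe the libraries.

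In MG sums the markers of other classes were low but not equal between libraries. Neutrophil markers summed to 2.67 CPM in PBS, 1.56 CPM with monomer, 20.2 CPM with PFF + VH and 17.9 CPM with PFF + AZD1480, monocyte markers to 6.45, 5.75, 14.3 and 6.99 CPM and border macrophage markers to 4.07, 3.75, 18.4 and 10.1 CPM, where MG markers stood at 9720 to 11570 CPM. Their part in the differences of Csf2ra and Csf3r was not tested.

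AZD1480 was compared with VH over the hashtags, where 27.1% of the 13507 genes tested in MG passed the threshold (1695 higher and 1965 lower with AZD1480). All VH hashtags are from 1 library and all AZD1480 hashtags from another of greater depth, so the treatment cannot be told apart from the library in any of these differences. Of the 6 members, 1 was higher and 2 were lower. Csf3r stood at 298.9, 292.0, 282.8 and 309.9 CPM in the 4 PFF + VH hashtags and at 333.5, 372.5, 378.9, 351.2 and 376.0 CPM in the 5 PFF + AZD1480 hashtags. The groups did not overlap, and the difference passed the test (log2 fold change 0.24 ± 0.05, SE, edgeR adjusted p = 0.0034). The share of all genes whose hashtags are apart in this way was not counted, so being apart is not read as particular to a member. In PBS and monomer MG the level had been 368.3 and 368.1 CPM, inside the range of the AZD1480 hashtags.

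Csf2rb was at 60.7, 55.6, 54.7 and 59.3 CPM with VH and at 48.9, 52.5, 48.2, 49.1 and 54.7 CPM with AZD1480. It was lower with AZD1480 (−0.24 ± 0.05, adjusted p = 0.0024), although the highest AZD1480 hashtag touched the lowest VH hashtag. Csf2rb2 was at 17.7, 18.2, 19.3 and 20.9 CPM with VH and at 16.4, 18.4, 16.4, 16.7 and 17.6 CPM with AZD1480. Its groups overlap and the call was marginal (−0.21 ± 0.07, adjusted p = 0.046), since DESeq2 (adjusted p = 0.106), MULTIseqDemux hashtag calls (0.198), RLE scaling (0.054) and the removal of any 1 of 7 of the 9 hashtags ended it. Both copies of the β chain thus had the same sign, but only Csf2rb kept its call under these settings.

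**Figure D2:**
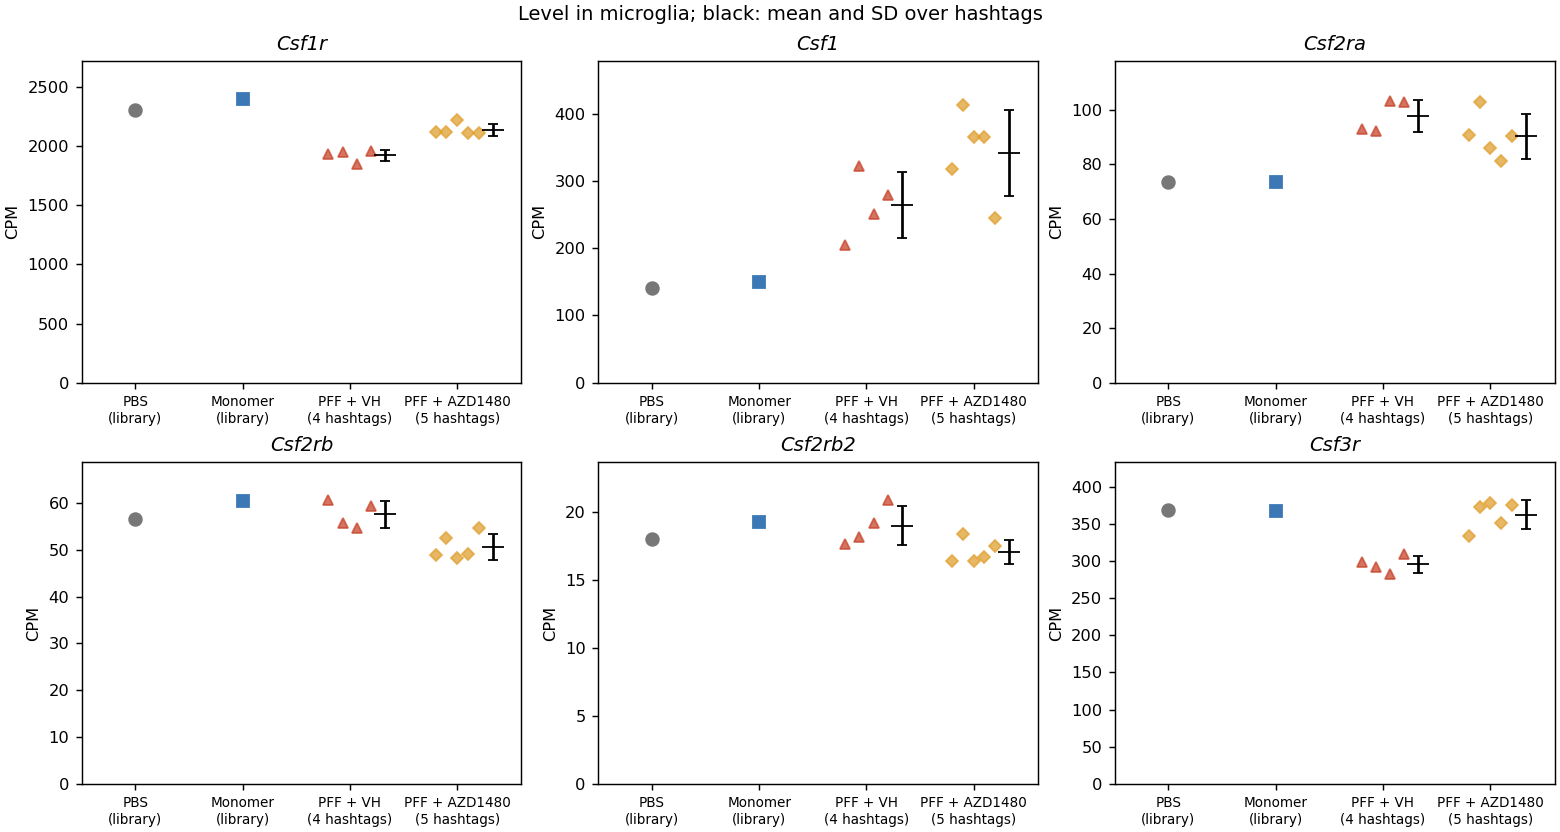
CPM of the 6 genes in MG: 1 value for the PBS and monomer libraries, 1 point per hashtag for PFF + VH and PFF + AZD1480, and the mean and SD over hashtags in black. The VH and AZD1480 hashtags are apart for Csf3r (282.8 to 309.9 against 333.5 to 378.9 CPM) and Csf1r (1852 to 1958 against 2110 to 2224 CPM), and overlap for the other 4 genes. The share of all genes that are apart was not counted.

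Csf1r was at 1933, 1947, 1852 and 1958 CPM with VH and at 2121, 2121, 2224, 2112 and 2110 CPM with AZD1480. The groups were apart, but after TMM scaling, which sets each hashtag relative to the bulk of its genes, the difference was 0.10 ± 0.05 and missed the threshold (adjusted p = 0.138); DESeq2 called it (0.11, adjusted p = 0.025). Csf1 was at 205.1, 322.7, 251.8 and 279.4 CPM with VH and at 318.1, 413.8, 365.4, 365.0 and 244.5 CPM with AZD1480. Its hashtags varied the most of the 6 members, and the difference of 0.31 ± 0.15 missed the threshold (adjusted p = 0.147). Without the fifth AZD1480 hashtag, the lowest of its group, the difference was 0.42 (adjusted p = 0.034). Csf2ra was at 93.1, 92.1, 103.1 and 102.7 CPM with VH and at 90.9, 102.9, 86.0, 81.1 and 90.3 CPM with AZD1480, a difference of −0.17 ± 0.07 (adjusted p = 0.090) that was called without the second AZD1480 hashtag (−0.22, adjusted p = 0.022) and with MULTIseqDemux calls (−0.24, adjusted p = 0.026).

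The shares of MG with a UMI were compared too, for the 6 members only, so the share of all genes that would pass is not known. Like CPM, they take no account of the shift of the other genes. For Csf1r the level had missed the threshold after TMM scaling (edgeR adjusted p = 0.138). After thinning to 1000 UMIs, Csf3r was found in 24.4% ± 0.43 (SD, n = 4) of MG with VH and 28.7% ± 1.01 (n = 5) with AZD1480, and Csf1r in 82.8% ± 0.41 (n = 4) and 85.6% ± 0.81 (n = 5), each with an exact two-sided permutation p of 0.0159, the smallest that 4 against 5 hashtags can give, and an adjusted p of 0.048 over the 6 members. Csf2rb was found in 5.31% ± 0.17 (n = 4) and 4.76% ± 0.45 (n = 5), an exact adjusted p of 0.095 that became 0.032 with thinning to 2000 UMIs. The shares of Csf1, Csf2ra and Csf2rb2 did not differ beyond the spread of the hashtags. Without thinning, Csf2ra, Csf2rb and Csf2rb2 appeared in more MG with AZD1480 (by 13.6, 8.94 and 3.88 percentage points), opposite to the thinned difference; the median depth of MG was 2595 to 3335 UMIs in the VH hashtags and 6388 to 7258 UMIs in the AZD1480 hashtags.

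In border macrophages 0.241% of 2075 genes passed the threshold for AZD1480 against VH, and only Csf1r (−0.07 ± 0.17, adjusted p = 0.94) and Csf2ra (0.39 ± 0.27, adjusted p = 0.63) had enough counts to be tested. The third AZD1480 hashtag, with 7 border macrophages, was left out. The fit rested on 4 against 4 hashtags of 16 to 47 cells. In T cells 0.685% of 876 genes passed and Csf1r, the member tested, was at −0.67 ± 0.43 (adjusted p = 0.49); the Csf1r UMIs of T cells are those described above against the MG marker ratio.

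The other genes of the pathway were counted from a list of 43, of which 36 could be tested in MG for AZD1480 against VH. Of these 9 were higher and 4 lower with AZD1480, where 27.1% of all genes tested passed, and the median log2 fold change was 0.07, against −0.0015 over all genes tested. The adaptors and kinases gave 4 higher and 1 lower of 12, the transcription factors 3 higher of 8, the negative regulators 2 higher and 2 lower of 7, and the target and survival genes 1 lower of 6. The phosphatase gene Inpp5d (0.40 ± 0.05, adjusted p = 0.00028), the kinase gene Syk (0.29 ± 0.04, adjusted p = 0.00062) and the ubiquitin ligase gene Cbl (0.37 ± 0.06, adjusted p = 0.000905), which acts on the Csf1r product, were higher. So were the transcription factor genes Cebpa (0.38 ± 0.09, adjusted p = 0.0063) and Cebpb (0.35 ± 0.08, adjusted p = 0.0083) and the PI3 kinase gene Pik3cd (0.19 ± 0.05, adjusted p = 0.011).

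Socs1, a feedback inhibitor induced by JAK and STAT signals, was lower with AZD1480 (−0.79 ± 0.19, adjusted p = 0.0084), as was the adaptor gene Tyrobp (−0.35 ± 0.09, adjusted p = 0.0097). Cish, the STAT5 target downstream of the β chain, was at −0.74 ± 0.26 (adjusted p = 0.052) on 93 to 183 UMIs per library. Jak2, the kinase bound to the β chain, was at 0.16 ± 0.06 (adjusted p = 0.055). Stat5a (0.11 ± 0.09, adjusted p = 0.40), Stat5b (0.05 ± 0.05, adjusted p = 0.43), Spi1 (0.09 ± 0.05, adjusted p = 0.17), which encodes the macrophage factor PU.1, and Il3ra (−0.14 ± 0.14, adjusted p = 0.48) missed the threshold. Il34, Csf2 and Csf3 were too low to be tested.

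Within MG the members separated by state. A disease-associated signature (at least 2 UMIs of Spp1, Lpl, Itgax, Cst7, Gpnmb, Igf1, Axl, Ccl6 and Lgals3 after thinning) was found, among MG with 1000 UMIs or more, in 3.87% in PBS, 4.86% with monomer, 16.3% with PFF + VH and 8.78% with PFF + AZD1480. MG with and without it were compared within each of the 9 hashtags, and 35.4% of 12594 genes passed. Csf1 was higher with the signature in 9 of 9 hashtags, at 418.5 to 1002 CPM against 160.5 to 347.1 CPM (log2 fold change 1.54 ± 0.07, SE, adjusted p = 6.55e-16), so the ranges do not overlap. The share of all genes whose ranges are apart, or that lie on 1 side in every hashtag, was not counted, for this signature or those below. Csf2ra was higher in 9 of 9 hashtags, at 115.5 to 166.0 CPM against 77.4 to 97.6 CPM (0.71 ± 0.06, adjusted p = 1.515e-10). Both β chain copies were higher in 8 of 9 hashtags, Csf2rb by 0.29 ± 0.07 (adjusted p = 0.0027) and Csf2rb2 by 0.41 ± 0.09 (adjusted p = 0.0010).

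Csf1r went the other way and was lower with the disease-associated signature in 9 of 9 hashtags, at 1505 to 1805 CPM against 1916 to 2268 CPM (−0.26 ± 0.05, adjusted p = 6.067e-05). Csf3r was lower in CPM in 9 of 9 hashtags too, but relative to all genes the difference was −0.09 ± 0.05 (adjusted p = 0.138). Of the 6 members 4 were thus higher with the signature and 1 was lower, where 2353 of the 12594 genes tested were higher and 2099 lower. The PBS and monomer libraries took no part in the fit. In CPM, Csf1 was higher with the signature in each (640.7 against 118.7 CPM and 267.4 against 142.5 CPM). Csf2ra was higher in PBS (109.4 against 72.1 CPM). In monomer it was 81.7 against 73.3 CPM, with overlapping exact Poisson intervals (73.6 to 90.4 and 71.5 to 75.1 CPM). Csf1r was lower in CPM in each (1933 against 2319 CPM and 2326 against 2407 CPM). Csf2rb in PBS was lower, opposite to the fit (52.0 against 56.8 CPM), with overlapping intervals. CPM take no account of the shift of the other genes, so directions relative to all genes were not tested in PBS and monomer.

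**Figure D3:**
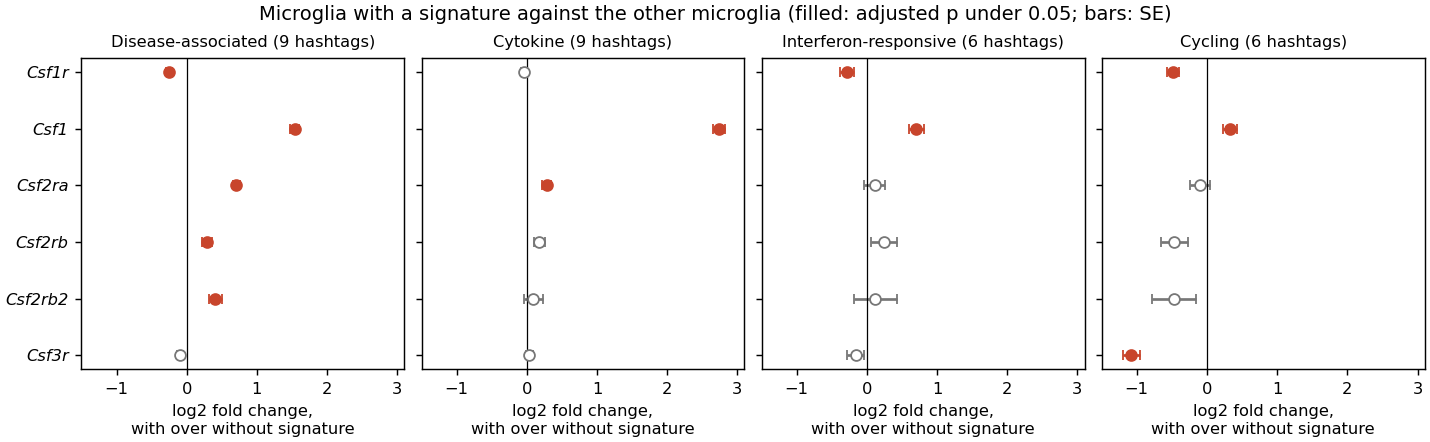
Log2 fold change of the 6 genes in MG with a signature over MG without it, within hashtags, with SE bars; filled points passed an adjusted p of 0.05. Csf1 lies right of 0 for all 4 signatures, with 2.73 for the cytokine and 1.54 for the disease-associated signature, and Csf3r lies at −1.08 for cycling MG.

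A cytokine signature (Il1a, Il1b, Tnf, Ccl3, Ccl4, Nlrp3, Cxcl2, Nfkbiz, Il1rn and Cd83) was present in 78.3% of MG in PBS, 82.7% with monomer, 94.0% with PFF + VH and 90.8% with PFF + AZD1480, and 27.1% of 12603 genes passed between MG with and without it. Csf1 was higher with it in 9 of 9 hashtags, at 216.9 to 432.6 CPM against 27.1 to 81.3 CPM (2.73 ± 0.08, adjusted p = 4.85e-28). Csf2ra was also higher (0.29 ± 0.06, adjusted p = 0.00039), whereas Csf1r (−0.04 ± 0.04, adjusted p = 0.42), Csf2rb (0.18 ± 0.08, adjusted p = 0.079), Csf2rb2 (0.09 ± 0.13, adjusted p = 0.69) and Csf3r (0.04 ± 0.05, adjusted p = 0.62) missed the threshold. In CPM, which take no account of the shift of the other genes, Csf1r was lower with the cytokine signature in all 9 hashtags (2020 ± 124 against 2322 ± 97.9 CPM, SD). The mean CPM of Csf3r (330.6 against 361.4) and Csf2rb2 (17.96 against 18.8) were lower as well. For these 2 the mean CPM and the edgeR fit differ in sign, while for Csf1r they do not. Csf2rb2 was higher with the signature in 4 of 9 hashtags, and its SD without it was 7.5 CPM.

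Csf1 was also followed over the number of signature UMIs. Over cytokine list UMIs per 1000, it was higher at each step in all 4 libraries: in MG with 0 it was 21.5 CPM in PBS, 33.2 CPM with monomer, 44.6 CPM with PFF + VH and 34.1 CPM with PFF + AZD1480, and in MG with 16 or more 287.2, 283.2, 458.7 and 583.8 CPM. Within the step of 8 to 15 cytokine UMIs it was 158.2 CPM in PBS, 170.6 CPM with monomer, 226.3 CPM with PFF + VH and 251.7 CPM with PFF + AZD1480. At 2 to 3 UMIs it was 66.2, 57.9, 95.8 and 87.8 CPM in these libraries, with the 2 PFF libraries in the other order. A step spans unequal counts, so a difference between libraries at equal cytokine UMIs was not tested. Over the disease-associated list, Csf1 was higher at each step up to 8 to 15 UMIs, where it was 1594 CPM in PBS, 822.5 CPM with PFF + VH and 1519 CPM with PFF + AZD1480. At 16 or more it was 1920 CPM in the 20 cells of PBS, 722.2 CPM (623.9 to 831.6) in the 49 cells of PFF + VH and 709.3 CPM (exact 95% Poisson interval 574.6 to 866.2) in the 24 cells of PFF + AZD1480, below the step before in both PFF libraries, though the intervals of the 2 steps overlap in PFF + VH. MG without any UMI of the disease-associated list, 58.1% to 83.4% of MG, held 113.7, 134.2, 206.9 and 266.5 CPM of Csf1 in the same order. At this depth a cell without such a UMI can still be in that state. The disease-associated comparison made only among MG with the cytokine signature (34.3% of 12432 genes passed) kept most of the same MG and gave 1.51 ± 0.07 for Csf1 (adjusted p = 2.311e-16) and 0.67 ± 0.06 for Csf2ra (adjusted p = 2.096e-10), which does not separate the 2 signatures.

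**Figure D4:**
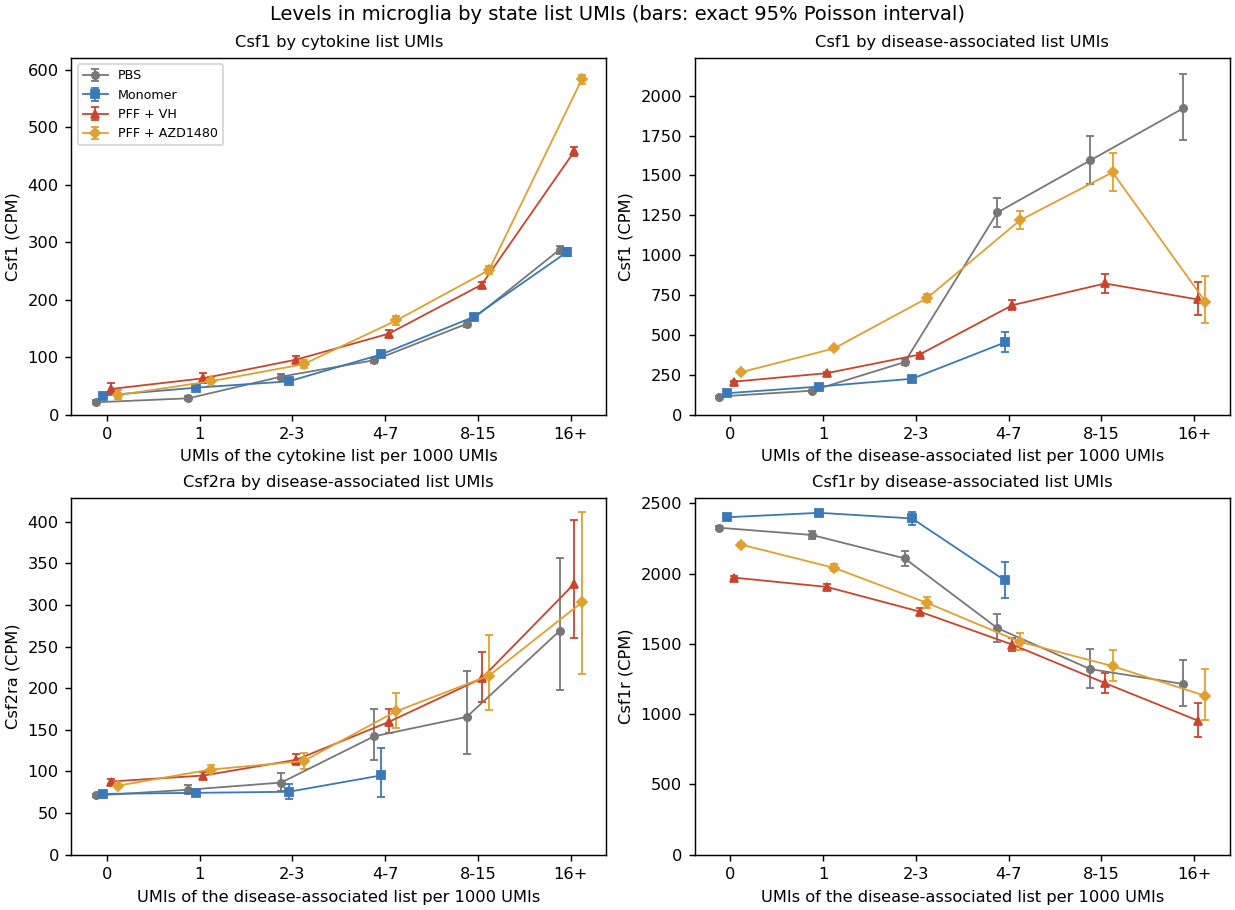
Csf1 by UMIs of the cytokine list, and Csf1, Csf2ra and Csf1r by UMIs of the disease-associated list, per 1000 UMIs of a cell, in the MG of each library, as CPM with exact 95% Poisson intervals; groups under 20 cells are left out. At 4 to 7 disease-associated UMIs Csf1 was 1268 CPM in PBS, 452.7 CPM with monomer, 686.5 CPM with PFF + VH and 1218 CPM with PFF + AZD1480, while Csf1r was 1495 to 1952 CPM.

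The size of the Csf1 difference depended on the library. The disease-associated signature went with 470.3 against 222.8 CPM of Csf1 in PFF + VH and with 892.0 against 293.1 CPM in PFF + AZD1480, and the difference between these effects was itself called (log2 0.45 ± 0.08, adjusted p = 0.00020, where 3.85% of 12594 genes passed). For the cytokine signature the values were 276.3 against 56.8 CPM and 369.7 against 49.3 CPM, a difference of 0.72 ± 0.15 (adjusted p = 0.011, where 0.524% of 12603 genes passed). None of the other 5 members passed this test for these 2 signatures. At 4 to 7 disease-associated UMIs the level in the 71 PBS cells (1268 CPM) was close to that of the 218 PFF + AZD1480 cells and above that of the 823 PFF + VH cells, and Csf2ra was 142.2, 95.3, 159.6 and 172.3 CPM in the 4 libraries.

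An interferon-responsive signature was rare (0.54% to 1.93% of MG), and 5.98% of 13236 genes passed in the 6 hashtags with at least 10 such cells, 4 of PFF + VH and 2 of PFF + AZD1480. Csf1 was higher with it in 6 of 6 hashtags (522.4 ± 266.5 against 303.4 ± 76.5 CPM, SD; 0.71 ± 0.11, SE, adjusted p = 2.652e-08) and Csf1r was lower (−0.28 ± 0.10, adjusted p = 0.049), a call that DESeq2 did not make (adjusted p = 0.239). Cycling MG (0.30% to 2.03%), again from 4 and 2 hashtags, held less Csf3r in 6 of 6 of them, at 138.6 to 225.4 CPM against 286.8 to 375.7 CPM (−1.08 ± 0.12, adjusted p = 5.686e-19, where 25.1% of 13474 genes passed). Csf1r was lower in them as well (−0.48 ± 0.09, adjusted p = 5.469e-07). Csf1 was higher (0.33 ± 0.10, adjusted p = 0.0061), but this call was not made by DESeq2 (adjusted p = 0.071), by MULTIseqDemux calls (0.225) or with at least 3 UMIs of the list (0.255). In the libraries outside the fit Csf1 was not higher in cycling MG, with 132.2 against 140.1 CPM in PBS and 132.1 against 148.8 CPM in monomer. The lower Csf3r of cycling MG was also seen in these libraries, with 175.1 against 369.4 CPM in PBS and 215.3 against 368.3 CPM in monomer.

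The α chain and the β chains were rarely seen in the same cell at this depth. After thinning to 2000 UMIs, 13.1% of MG in PBS held Csf2ra and 13.3% held Csf2rb or Csf2rb2, and 1.81% held both, against 1.75% if the detections were unrelated. Both chains were held by 2.16% of MG with monomer against 1.96%, by 2.36% with PFF + VH against 2.26% and by 1.92% with PFF + AZD1480 against 1.80%. The share with both was thus above the unrelated value in each of the 4 libraries, untested, and the counts do not tell which MG could form the receptor.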

How the data were processed

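The matrices hold deposited UMI counts of genes in cells; to make them the authors ran Cell Ranger against mm10 on 10x 3′ libraries. Whether intronic reads were counted is not given in the sources used here. Following the limits in the study's methods, cells entered with 500 to 15000 UMIs, 250 to 5000 genes and no more than 10% mitochondrial UMIs. The limit on genes, found in over 0.1% of cells, was applied to 1 fit only. That was the disease-associated comparison among MG with the cytokine signature. Doublets were treated only by leaving cells with more than 1 hashtag, or with markers of more than 1 class, out of the tests. Hashtags were called with HTODemux (Seurat 5.3.0, R 4.3.3).

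A class needed at least 3 UMIs from at least 2 of its markers. MG needed MG markers at 0.3% of UMIs or more and no other class; any other class needed less than that and 2 times the UMIs of the next. Between 6.03% and 10.2% of cells of a library lay at 0.2% to 0.4%. Markers found in over 2% of cells with 20 MG-marker UMIs were not scored, a limit set after values were seen.

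Counts were summed per class or state and hashtag with at least 10 cells (for AZD1480 against VH, at least 3 hashtags per library) and tested with edgeR 4.0.16 (quasi-likelihood, TMM, filterByExpr, Benjamini-Hochberg, threshold 0.05), classes and states paired by hashtag; the procedure was tested on simulated data. The hashtag numbers do not pair the libraries (correlations of −0.04 to 0.07 in MG). Single values had exact two-sided permutation tests with Benjamini-Hochberg adjustment. Intervals are at 95% and cover counting error only, and nothing says that hashtags are separate animals beyond the pooling stated. Alternatives were DESeq2 1.42.0, RLE scaling, other hashtag calls, filters, class limits and thinning. The 6 members were named by rule, pathway genes as the 8 smallest adjusted p past the threshold plus 10 fixed genes, and the members and lists were chosen with earlier results of these data known.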

Additional observations from a re-analysis of the deposited data

Results flagged for a closer look

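Of 24 groups of hashtags with 4 or 5 values in MG and border macrophages, 2 had a hashtag whose gap to the others exceeded Dixon's 95% limit, and chance gives about 1 in 20. In the PFF + AZD1480 MG, the third hashtag held 2224 CPM of Csf1r, where the other 4 lay within 2110 to 2121 CPM. In the PFF + VH border macrophages, 1 hashtag held 19.8 CPM of Csf2rb2, from 3 UMIs in 47 cells, and the other 3 held none, so that any value above 0 would have passed the limit. Of 24 tests of whether a signature effect differed between PFF + AZD1480 and PFF + VH, 2 passed, both for Csf1, by 0.45 on the log2 scale for the disease-associated and by 0.72 for the cytokine signature, and the library and the treatment cannot be told apart in them. The 12 tests for the interferon-responsive and cycling signatures rested on 4 and 2 hashtags.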

How the results depend on the processing

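Of 183 member effects refitted with another tool, scaling, filter, hashtag call, class limit or thinning, 158 kept direction and side of the threshold, 14 lost the call, 5 gained it and 6 changed sign. Of 76 refitted without 1 hashtag, 65 kept both, 7 lost the call, 2 gained it and 2 changed sign. Refits on thinned cells were chosen after seeing the data. The cause of these changes was not tested.

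For AZD1480 against VH in MG, DESeq2 called Csf1r (0.11). Csf2rb2 was no longer called with DESeq2 (−0.20), no filter (−0.21), RLE scaling (−0.20), MULTIseqDemux (−0.17), a class limit of 5 times (−0.19) or thinning (−0.19), and lay between −0.25 and −0.17 without single hashtags. MULTIseqDemux called Csf2ra (−0.24), which lay between −0.22 and −0.13 without single hashtags, as Csf1 lay between 0.20 and 0.44. The genes called in MG, 3660, were 1682 after thinning. In border macrophages 5 genes were called, but 10 with DESeq2, 87 without a filter, 1 with RLE scaling, 3 in cells with 1000 counts or more, 1 without 4 rRNA-overlapping genes, 0 by edgeR after thinning, and 1 to 14 without single hashtags. Csf1r changed sign there without a filter (0.064) and lay between −0.15 and 0.031 without single hashtags, and Csf2ra changed sign with the leading-hashtag calls (−0.18). In T cells 6 genes were called, but 11 with DESeq2, 22 without a filter, 2 after thinning and 2 to 16 without single hashtags.

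The block on hashtag number (hashtags 1 to 4), whose numbers did not pair the libraries, gave 3285 genes in MG and 50 in T cells, called Csf1 (0.43, edgeR adjusted p = 0.0027) and ended the call of Csf2rb2 (−0.21). In MG this fit also left out the fifth AZD1480 hashtag, whose removal alone called Csf1 too, so the call is not put down to the block.

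For border macrophages against MG, DESeq2 ended the call of Csf2rb2 (−1.58) and no filter that of Csf2ra (0.47). For cycling MG the call of Csf1 was lost with DESeq2 (0.41), at least 3 UMIs (0.22) and MULTIseqDemux (0.23), and Csf2ra changed sign with DESeq2 (0.0098). At least 3 UMIs called Csf2rb with the cytokine (0.26) and Csf3r with the disease-associated signature (−0.19). For the interferon-responsive signature 792 genes became 454 with DESeq2 and 402 with MULTIseqDemux, Csf1r lost its call in both (−0.18 and −0.31), Csf2rb2 changed sign with at least 3 UMIs (−0.020) and with MULTIseqDemux (−0.10), and Csf2ra with MULTIseqDemux (−0.0096).

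Differences in the share of MG with a UMI, in percentage points, changed sign for Csf1 with thinning to 2000 UMIs (−0.982) and without thinning for Csf2ra (13.6), Csf2rb (8.94) and Csf2rb2 (3.88), and thinning to 2000 called Csf2rb (−1.87). Without single hashtags Csf1r lay between 2.58 and 3.13, Csf3r between 4.03 and 4.69, Csf1 between −0.275 and 1.27 and Csf2rb2 between −0.221 and 0.0116, and no adjusted p passed in these smaller designs. The smallest exact permutation p they can give is 0.0357 without a VH hashtag and 0.0286 without an AZD1480 hashtag. Csf1r and Csf3r had that p each time, so their missed threshold reflects the size of the design and does not show a weaker difference. Of 48 MG levels, 8 moved beyond their counting interval, by at most 3.7%. The limit of 5 times was not run for border macrophages and T cells, which kept too few hashtags. Depth limits every class, MG included.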

Other observations

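The 4852 unassigned cells, of low depth (median 1104.5 to 2368.5 UMIs per library), held 470.5 CPM of Csf1 and 1073 CPM of Csf1r, with 9.67 and 2.67 times the UMIs that their MG markers would give. MG had to reach a set share of MG markers, so the class rule left mainly cells with few of them unassigned. MG markers summed to 1792 to 2055 CPM in the unassigned cells of the libraries, against 9720 to 11570 CPM in MG. Raised quotients can follow from this rule, and whether the unassigned cells are MG was not tested. They took part in no test. Their Csf1 level, 268.2 to 632.4 CPM over the libraries, was above that of MG in the pooled sum.

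In PFF + VH, median depth was 1410 UMIs in the 11536 MG that had no hashtag and 2967.5 UMIs in MG with 1, and the former had lower levels of Csf1r (1800 against 1925 CPM) and Csf1 (242.4 against 266.1 CPM). The 524 MG without a hashtag in PFF + AZD1480 had 542.8 CPM of Csf3r against 358.9 CPM in those with 1.

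Of the pathway list of 43 genes, 35 could be tested for the cytokine signature in MG, and 20 of them were higher and 2 lower, where 27.1% of all genes tested passed, with a median log2 fold change of 0.30 against −0.03 over all genes tested. Pim1 (2.84 ± 0.12, SE), Socs3 (1.87 ± 0.07) and Mcl1 (1.58 ± 0.06), known targets of cytokine receptors, were among the higher genes. With the disease-associated signature 6 of 36 were higher and 13 lower, where 35.4% of all genes tested passed. Tyrobp (0.93 ± 0.08), Bcl2 (0.78 ± 0.08) and Il3ra (0.70 ± 0.11) were higher there, and Stat3 (−0.58 ± 0.05) and Inpp5d (−0.44 ± 0.05) were lower.

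In border macrophages against MG, 4 of the 35 genes of the list tested were higher, Ccnd2 (5.51 ± 0.33), Pim1 (1.94 ± 0.16), Ccnd1 (1.04 ± 0.17) and Cebpb (0.45 ± 0.15), and 13 were lower, where 25.3% of all genes tested passed.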
